A study of Mus musculus and Sus scrofa with 12 samples.

Results

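In the mouse embryonic forelimb, 5626 of 18353 H3K4me3 peaks lay over H3K4me1 and apart from H3K27ac. These peaks were selected on measured values: a member is a peak of the mouse H3K4me3 list that overlapped a mouse H3K4me1 peak by at least 1 bp and no mouse H3K27ac peak. The overlaps that define the set are therefore given below as a description, with no test. The other H3K4me3 peaks on chromosomes fell into 7813 with both further marks, 1527 with H3K27ac but no H3K4me1, and 3370 with neither, here called H3K4me3 alone. The remaining 17 peaks lay on scaffolds, held no member and were not classed.

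The study mapped the 3 histone marks by ChIPmentation, a ChIP-seq method in which a transposase adds the sequencing adapters on the beads, in forelimbs of wild-type mouse embryos at E11.5 and of wild-type pig embryos at gestational day 23. Embryos came from natural mating, replicates were littermates, and no source used here names a strain or breed. The labels name 12 samples, 2 for each mark in each species, whereas the series' design text describes a single biological replicate for pig H3K4me1. Each mark has 1 deposited consensus peak list per species, without scores, counts or values per replicate, so the depth behind a peak is unknown and no spread between animals can be given. Nothing was treated or mutated, and all groups share the genotype.

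H3K4me3 marks the nucleosomes around active and poised start sites, and it is typically found at CpG-rich promoters whether or not the gene is strongly transcribed. H3K27ac is deposited by p300 and CBP and accompanies active promoters and enhancers. H3K4me1 is best known from enhancers, and at promoters it usually flanks the H3K4me3 domain. Many developmental control genes keep H3K4me3 while silenced by Polycomb complexes, which deposit H3K27me3, a mark that is not part of these data. The forelimb is a bulk tissue of mesenchyme with ectoderm, vessels, blood, muscle precursors and nerve-associated cells. Marks on different cells cannot be told apart from marks on the same nucleosomes, and fewer cells of a type cannot be told apart from less signal per cell.

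The set can be read in sequence at 4 member promoters, taken as the first gene of each of 4 lists with a RefSeq promoter. They were not picked by CpG content, and 4 promoters do not stand for the set. Each line is the 250 bases upstream of the start site, 5′ to 3′ on the gene's strand, from RefSeq on GRCm38.p6, with CpG pairs in capitals. Gsx2, a homeobox factor of the ventral forebrain, is at chr5:75075351-75075600 on the plus strand. Neurog2, a proneural bHLH factor, is at chr3:127632886-127633135 on the plus strand. Onecut1, a liver and pancreas factor, is at chr9:74861671-74861920 on the plus strand. Runx1, the factor of blood stem cell emergence, is at chr16:92826075-92826324 on the minus strand. Gapdh, a glycolytic enzyme gene whose start site carried all 3 marks, is given for comparison from chr6:125165774-125166023 on the minus strand.
Gsx2: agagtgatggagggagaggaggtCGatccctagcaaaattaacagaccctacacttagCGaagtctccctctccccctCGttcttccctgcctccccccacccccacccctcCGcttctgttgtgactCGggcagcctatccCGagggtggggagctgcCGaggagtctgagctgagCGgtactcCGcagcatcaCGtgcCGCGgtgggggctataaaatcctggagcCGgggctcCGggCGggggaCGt
Neurog2: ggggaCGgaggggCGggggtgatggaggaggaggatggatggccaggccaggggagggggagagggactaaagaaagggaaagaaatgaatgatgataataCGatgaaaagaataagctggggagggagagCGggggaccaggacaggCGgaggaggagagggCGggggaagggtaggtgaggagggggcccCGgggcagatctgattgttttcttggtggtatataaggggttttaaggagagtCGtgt
Onecut1: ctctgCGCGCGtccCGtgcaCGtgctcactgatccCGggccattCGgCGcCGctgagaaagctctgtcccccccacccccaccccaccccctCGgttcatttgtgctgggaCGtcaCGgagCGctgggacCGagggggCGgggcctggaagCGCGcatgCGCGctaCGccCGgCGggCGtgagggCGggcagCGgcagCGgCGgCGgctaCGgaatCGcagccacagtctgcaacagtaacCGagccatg
Runx1: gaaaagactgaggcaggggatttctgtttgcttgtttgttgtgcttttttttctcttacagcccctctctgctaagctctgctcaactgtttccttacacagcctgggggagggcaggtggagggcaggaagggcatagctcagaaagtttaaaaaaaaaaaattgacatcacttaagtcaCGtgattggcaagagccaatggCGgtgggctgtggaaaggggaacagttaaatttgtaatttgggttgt
Gapdh: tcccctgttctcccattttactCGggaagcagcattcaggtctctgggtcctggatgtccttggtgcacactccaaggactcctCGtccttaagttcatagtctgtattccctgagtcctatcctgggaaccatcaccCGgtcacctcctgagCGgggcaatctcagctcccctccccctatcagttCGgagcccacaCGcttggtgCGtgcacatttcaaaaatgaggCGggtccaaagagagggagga
The Onecut1 stretch holds 31 CpG pairs, an observed-over-expected ratio of 0.968. Gsx2 holds 16 at a ratio of 0.634 and Neurog2 8 at 0.713. The Runx1 stretch holds 2 at a ratio of 0.165, below the 8 pairs and 0.422 of Gapdh. These member promoters thus run from CpG-rich to CpG-poor sequence. Gapdh is below its class, whose median ratio over 300 bases was 0.816, and Runx1 also had a peak with all 3 marks at another TSS.

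Most members were promoter peaks. Of 5626 members, 4340 came within 1 kb of a RefSeq transcription start site (TSS), 77.1% (95% Wilson interval 76.0% to 78.2%, counting error only, as for all intervals here). The same share was 91.5% for peaks with all 3 marks, 83.0% for H3K4me3 with H3K27ac, and 62.3% for H3K4me3 alone. A protein-coding TSS was reached by 3959 members, and 381 reached only the TSS of a non-coding gene. Of the 1286 members at no TSS, 610 lay in the body of a coding gene, and their median distance from a TSS was 12.3 kb. CpG content of the central 1 kb was lower there, with a median observed-over-expected ratio of 0.367 against 0.497 for members at a TSS. Members spanning 2 or more coding genes numbered 299, which is 5.31% of members and compares with 12.6% of the peaks with all 3 marks.

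The median member was 3236 bp wide (quartiles 2746 and 3732 bp), between the 3530 bp of peaks with all 3 marks and the 2754 bp of H3K4me3 alone. H3K4me1 covered a median 71.6% of a member and 53.7% of a peak with all 3 marks. It covered the whole peak, meaning at least 95% of it, in 1722 members (30.6%) and in 10.2% of peaks with all 3 marks. It reached in from 1 edge in 3174 members (56.4%), from both edges in 339 (6.03%), and lay inside the peak in 391 (6.95%). Flanking from both edges, the textbook promoter layout, was found in 14.1% of the peaks with all 3 marks, and entry from 1 edge in 70.4%. The 339 members flanked on both edges had the highest CpG ratio of the 4 layouts, a median of 0.622 in the central 1 kb, compared with 0.432 for the members covered whole. Peaks with all 3 marks likewise had their highest ratio when flanked on both edges, 0.717, compared with 0.368 when covered whole.

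**Figure D1:**
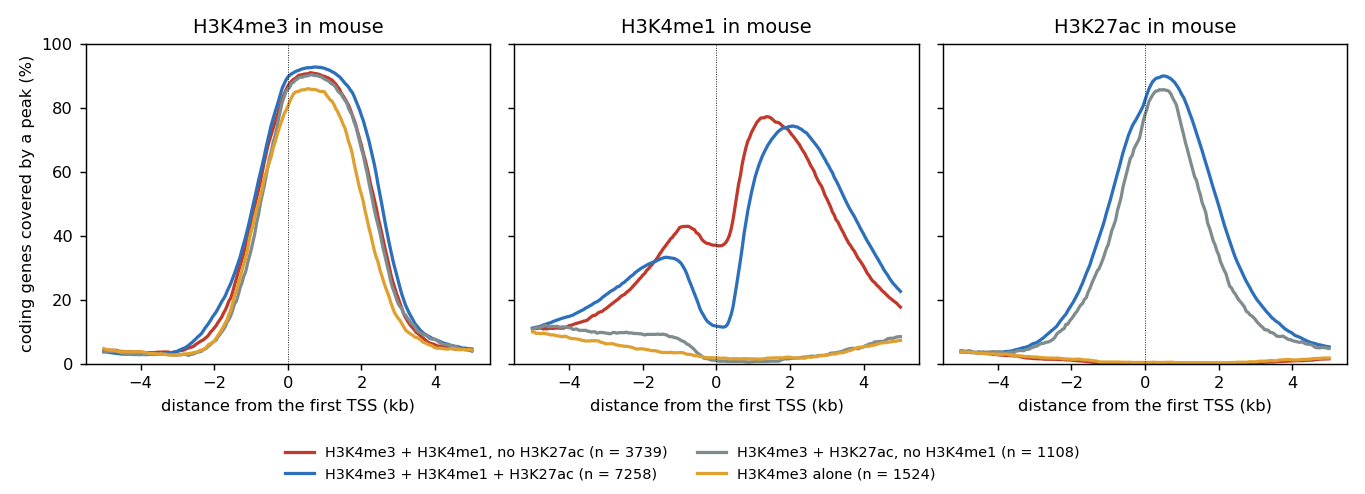
Share of coding genes covered by a mouse peak (vertical axis, percent) at each distance from the first TSS (horizontal axis, kb, genes read left to right), by mark and by promoter state, counting only genes in 1 state. At the TSS itself H3K4me1 covered 37.0% of member genes and 11.7% of genes with all 3 marks.

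The profile of marks along the genes shows where H3K4me1 lay. Among the 3739 coding genes covered by a member and no other kind of H3K4me3 peak, 37.0% had H3K4me1 on the first TSS, against 11.7% of the 7258 genes with all 3 marks. The curves were closer at 1.5 kb into the gene, with 76.7% and 70.2%. Upstream, at 1 kb before the TSS, they stood at 42.6% and 31.8%. H3K4me1 was thus mainly downstream of the TSS in both sets, and its dip over the TSS was shallower in the members. No test was possible, since each curve comes from 1 consensus list.

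The rule keeps H3K27ac off the members, so some distance to it was fixed in advance. The median distance to the nearest H3K27ac peak was 25.3 kb (quartiles 10.7 and 57.2 kb), and 1320 members (23.5%) had one within 10 kb. H3K4me3 alone, which also lacks H3K27ac, had a median distance of 28.98 kb, with 21.7% of its peaks within 10 kb. The distance from H3K27ac is therefore no trait of the members alone. A few members sat at the limit of the rule: 24 met H3K4me1 by 100 bp or less and 5 had H3K27ac within 100 bp. Just inside were Nrarp, a Notch inhibitor, with 9 bp of H3K4me1, Zbtb16, a zinc finger factor of limb patterning, with 43 bp, and Galt, an enzyme of galactose metabolism, with H3K27ac 22 bp away. Just outside were Pou4f1, a sensory neuron factor whose H3K4me3 peak ended 37 bp from H3K4me1, and Gse1, which shared 20 bp with H3K27ac.

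Along the autosomes the members made up between 25.8% (chromosome 12) and 37.2% (chromosome 15) of the H3K4me3 peaks. On the X chromosome they were 90 of 602 peaks, 14.95% (12.3% to 18.02%), and H3K4me3 alone made up 30.2% there. All 8 peaks on the Y chromosome were outside the set.

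At least 1 member covered a TSS of 4092 of 21774 coding genes, 18.8%, which is the background for the gene groups below. This is 28.9% of the 14158 coding genes with any H3K4me3 peak at a TSS. Of the 4092 genes, 353 also had an H3K4me3 peak of another kind at a TSS, and 303 had H3K27ac in a TSS window. Members also covered 878 of 12638 lncRNA genes, 76 miRNA genes and 53 tRNA genes. The gene groups rest on the contrast that defined the members, so their counts describe the set and carry no test. Names outside the fixed rule, which are the members of symbol families, were chosen after their values were seen.

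**Figure D2:**
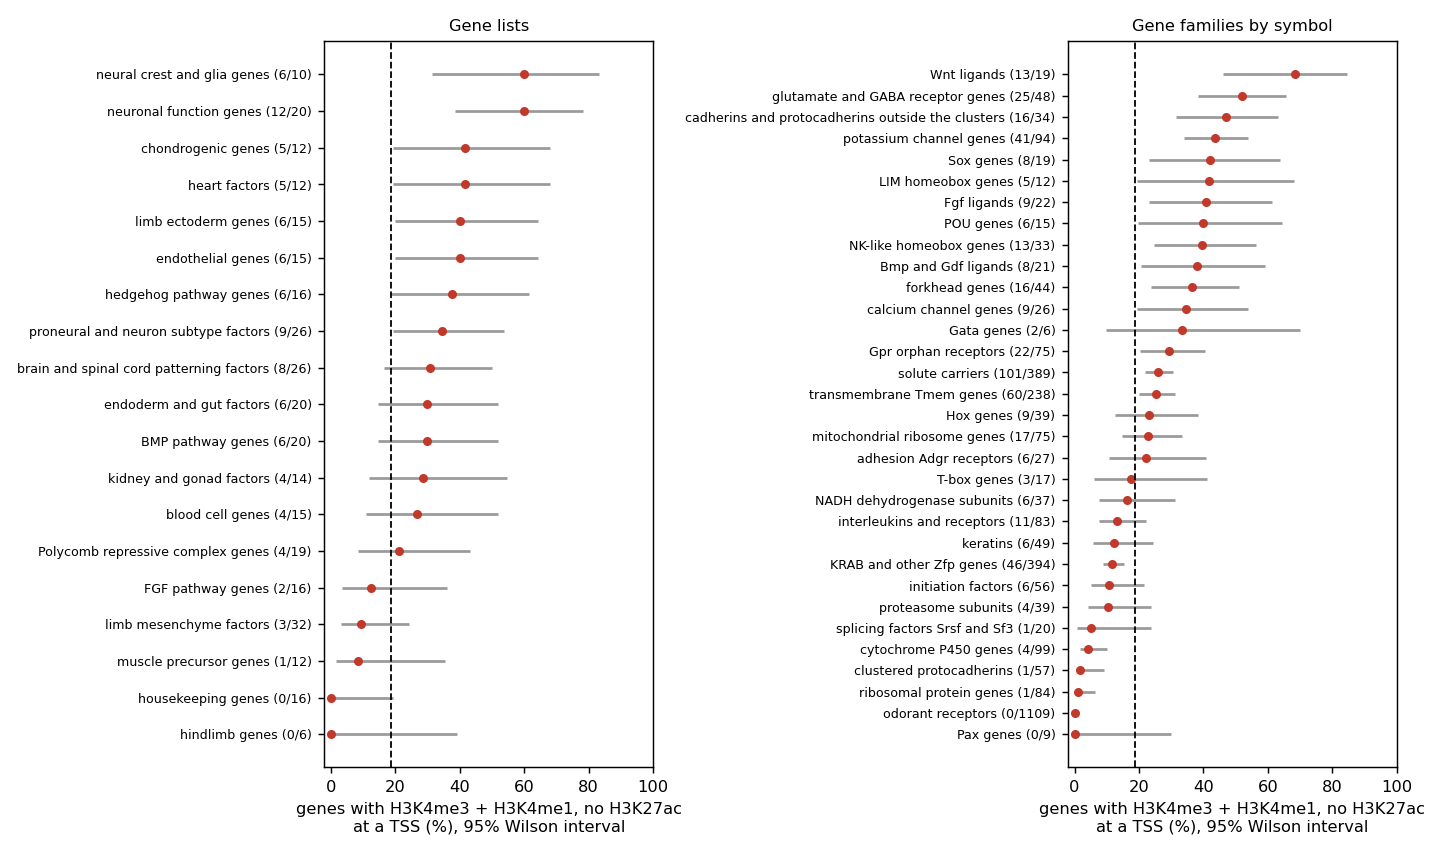
Share of genes with a member at a TSS (horizontal axis, percent) for each gene list (left) and each symbol family (right), with genes covered and genes in the list in brackets. Points are shares, bars are 95% Wilson intervals, and the dashed line is the 18.8% of all coding genes; Wnt ligands stand at 13 of 19 and housekeeping genes at 0 of 16.

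Regulators of other tissues were frequent in the set but not restricted to it. The background was 18.8% of all coding genes. Of 100 listed regulators of brain, neurons, gut, heart, kidney, gonad and hindlimb, 31 were covered by a member (31.0%, 22.8% to 40.6%). Nearly as many, 27, lay under H3K4me3 alone, 7 had a peak with all 3 marks, 5 had H3K4me3 with H3K27ac, and 32 had no H3K4me3 peak at a TSS. Members covered 18.8% of all coding genes and H3K4me3 alone covered 8.05%, so set against these backgrounds the list stood further out under H3K4me3 alone than under the members. The description of the set as developmental regulators of other tissues thus holds for a part of the list and is no trait of the members alone. Whether the covered genes are weakly used was not tested, because no expression was measured.

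Among 26 brain and spinal cord patterning factors, 8 were covered, among them Otx1, Rax, En2, Nkx2-2, Olig1, Hesx1 and Gsx2. Nkx2-2, which specifies ventral spinal cord progenitors, and Olig1, an oligodendrocyte factor, were covered whole by H3K4me1, with H3K27ac 100.2 kb and 101.0 kb away. Otx1, an anterior brain factor, had a 4377 bp peak with a 1990 bp stretch of H3K4me1 inside it. The lists of proneural and neuron subtype factors gave 9 of 26, among them Neurog2, Atoh1, Isl2, Lhx4 and Pou4f2. H3K4me1 covered at least 95% of the peak in 6 of these 9, including Neurog2 and Atoh1, the factor of cerebellar granule cells and hair cells. None of the 26 proneural and subtype factors had H3K27ac at a TSS. The neuron factors were therefore free of H3K27ac throughout, and differed in how much of the peak H3K4me1 took.

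Genes of differentiated neurons stood higher, with 12 of 20 covered (95% interval 38.7% to 78.1%). They included Tubb3, the neuronal tubulin, Snap25 and Syp, which serve synaptic vesicle release, Stmn2 and Gap43, both growth cone genes, and the neurofilament genes Nefl and Nefm. H3K4me1 covered Tubb3, Stmn2 and Nefl whole, and 47.3% of Gap43. By symbol, 25 of 48 glutamate and GABA receptor genes (52.1%) and 41 of 94 potassium channel genes (43.6%) were covered. Of the receptor genes, 4 of 48 had H3K27ac at a TSS and 9 had H3K4me3 alone. The median distance from a covered receptor gene's peak to H3K27ac was 367 kb, against 25.3 kb over all members. The distance varied between genes: it was 789 kb for Grin2a and 7.91 kb for Grin2b, both NMDA receptor subunits, and 63.4 kb for Gria2, an AMPA receptor subunit. Cadherins outside the clusters gave 16 of 34, whereas the clustered protocadherins, neuronal identity genes with arrayed promoters, gave 1 of 57 (Pcdhac2), with 26 under H3K4me3 alone.

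Further tissues followed with smaller numbers, to be read beside the 18.8% of all coding genes. The endoderm list gave 6 of 20, namely Gata4, Gata6, Onecut1, Prox1, Hhex and Barx1. Heart factors gave 5 of 12, with Gata4, Irx4, Myocd, Smyd1 and Hey2, of which Myocd drives smooth and cardiac muscle genes and Smyd1 is a muscle methyltransferase. Kidney and gonad factors gave 4 of 14, namely Wt1, Nr5a1, Eya1 and Sim2. Hindlimb genes, those that set hindlimb against forelimb, gave 0 of 6 (upper limit 39.0%), and 5 of the 6 had H3K4me3 alone. Nr5a1, the steroidogenic factor, had a 4909 bp peak at 63.5 kb from H3K27ac, and Hhex, an early liver factor, was covered whole by H3K4me1.

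Markers of the minor cell types of a limb bud were covered to differing degrees. The shares over all coding genes were 18.8%, and 28.9% of those with H3K4me3. Neural crest and glia genes gave 6 of 10, namely Sox10, Foxd3, Erbb3, Ednrb, Ngfr and Mitf. Their H3K4me1 cover was low, with a median of 29.2% over the 6 genes and 16.8% for Sox10, the Schwann cell and melanocyte factor. Limb ectoderm genes gave 6 of 15, namely Krt5, Krt18, Cdh1, Sp6, Wnt7a and Esrp1, with a median cover of 98.8%. Cdh1, the epithelial cadherin, and Krt5, a basal keratin, were covered whole. Endothelial genes gave 6 of 15, namely Tek, Flt4, Sox7, Sox18, Egfl7 and Esam, and 7 more had H3K4me3 alone. Blood genes gave 4 of 15, which is 28.6% of those with H3K4me3 and so at the overall share. Muscle precursor genes gave 1 of 12 (8.33%), Myod1, the muscle determination factor, with 93.1% cover. Other genes of these lists had H3K27ac at a TSS: 3 of 10 neural crest, 5 of 15 ectoderm, 2 of 15 endothelial, 6 of 15 blood and 6 of 12 muscle genes. Over all 21774 coding genes 9065 had it. The part of minor cell types in these counts was not tested.

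Limb mesenchyme genes lay mostly elsewhere. The lists were chosen with earlier results known and the rule excludes H3K27ac, so these counts are no check of the tissue. All 32 listed limb mesenchyme factors had H3K4me3, 29 had H3K27ac at a TSS, and 3 were covered by a member: Alx1, Lhx2 and Zbtb16. Of these, Lhx2 also had an H3K27ac-marked TSS. All 16 housekeeping genes had all 3 marks and none was covered. Of all 21774 coding genes, 14158 had H3K4me3, 9065 had H3K27ac at a TSS and 7644 had a peak with all 3 marks. Ribosomal protein genes gave 1 of 84 and splicing factors 1 of 20.

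Ligands, receptors and antagonists of signalling pathways were among the covered genes. The Wnt ligands, secreted glycoproteins that stabilise beta-catenin or steer planar polarity, gave 13 of 19 (68.4%, 46.0% to 84.6%), the highest share among the 32 symbol families. Covered were Wnt2, Wnt2b, Wnt3, Wnt3a, Wnt4, Wnt5b, Wnt6, Wnt7a, Wnt7b, Wnt9b, Wnt10a, Wnt10b and Wnt16. A peak with all 3 marks covered Wnt5a, the ligand of limb outgrowth, and also Wnt9a and Wnt11. No H3K4me3 peak was at Wnt1, Wnt8a and Wnt8b. Wnt3, the ectodermal ligand of the limb, shared its 4733 bp peak with Wnt9b, and H3K4me1 took 38.0% of it. Wnt7a, the dorsal ectoderm ligand, had 85.6% cover, Wnt3a 99.8% and Wnt16 100%. Only Wnt5b of the 13 had H3K27ac in a TSS window, at another promoter.

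The hedgehog list gave 6 of 16 genes (37.5%, 18.5% to 61.4%), beside 18.8% of all coding genes. Shh, the posterior limb morphogen, had a 4354 bp member with 40.1% under H3K4me1 and H3K27ac 135 kb away. Dhh, the hedgehog ligand of testis and nerve, had a 5138 bp member. Ptch1, a receptor that is itself a pathway target, Gli2, a transcriptional effector, and Hhip, an antagonist that binds the ligands, were also covered. Ptch1 and Gli2 had H3K27ac at another TSS as well, whereas Hhip did not. BMP pathway genes gave 6 of 20, namely the ligands Bmp5, Bmp6, Bmp7, Gdf5 and Gdf6 and the antagonist Nog. Bmp5 was covered whole by H3K4me1, Gdf5, the ligand of joint formation, was flanked from both edges with 67.7% cover, and Bmp7 had 37.3%. None of these 6 had H3K27ac in a TSS window. FGF pathway genes gave 2 of 16 (12.5%, 3.50% to 36.0%), Fgf18 and Fgfr4, a share below that of all coding genes. The chondrogenic list gave 5 of 12 (41.7%, 19.3% to 68.0%), namely Sox6, Runx2, Runx3, Comp and Nkx3-2, factors and a matrix protein of cartilage and bone. Sox6 and Runx2 also had H3K27ac at another TSS, under a peak with all 3 marks.

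Transcription factor families were split between states. Hox genes gave 9 of 39 (23.1%, 12.6% to 38.3%), near the 18.8% of all coding genes. Of the Hox genes with H3K4me3 this is 27.3%, against 28.9% over all coding genes with H3K4me3. Among the 9 were Hoxa2, Hoxa3, Hoxa6, Hoxa10, Hoxb1, Hoxc8, Hoxc12 and Hoxd1. Of the 39 Hox genes, 21 had H3K27ac at a TSS, among them the covered Hoxa3 and Hoxa10. Hoxa3 and Hoxa6 shared 1 member of 4282 bp. Forkhead genes gave 16 of 44, Sox genes 8 of 19, NK-like homeobox genes 13 of 33 and POU genes 6 of 15. The POU genes included all of Pou3f1, Pou3f2, Pou3f3 and Pou3f4, the class III factors of neural progenitors. Pax genes gave 0 of 9, and all 5 with H3K4me3 had it alone at a TSS, 2 of them with all 3 marks at a further one. KRAB and other Zfp genes gave 46 of 394 (11.7%, 8.87% to 15.2%), below the 18.8% of all coding genes.

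The proteasome gave 4 of 39 subunit genes (10.3%, 4.06% to 23.6%), a share below the 18.8% of all coding genes. A peak with all 3 marks covered 31 subunit genes. The 4 were Psmb8, Psmb9, Psmb10 and Psmd9. The first 3 encode the catalytic subunits of the immunoproteasome, the interferon-induced form of the complex, and Psmd9 is an assembly chaperone. H3K4me1 covered Psmb9 whole, 99.3% of Psmb8 and 80.5% of Psmb10, and 55.5% of Psmd9. Keratins gave 6 of 49 (12.2%), and 10 keratin genes had H3K4me3 at all. The 6 were Krt7, Krt8, Krt18 and Krt19 of simple epithelia and Krt5 and Krt15 of basal layers. Mitochondrial ribosome genes gave 17 of 75 (22.7%), close to the background, and initiation factors 6 of 56 (10.7%), below it. The Polycomb list gave 4 of 19 (21.1%), close to the background, namely Phf1, Phf19, Ring1 and Cbx7, with 14 of 19 under all 3 marks.

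The widest member at a coding TSS, 8600 bp, covered Islr2, a neuronal membrane protein, and 7813 bp of it lay under H3K4me1, the most of any member at a coding TSS. Other wide members covered Arl6ip4 and Ogfod2 (7810 bp) and Tfap2e (7057 bp), an AP-2 factor. Sim2, a midline bHLH factor, was the ninth at 6291 bp. Of the 12 widest, 5 covered a pair of genes, such as Cks1b with Shc1 and Klhl17 with Noc2l. By H3K4me1 cover, Islr2 was followed by Slitrk2 with 5991 bp and Slitrk3 with 5647 bp, both synaptic adhesion proteins, Pou3f3 with 5597 bp, Wnt5b with 5236 bp and Rem2 with 5124 bp. Slitrk2 and Slitrk3 were 2023 kb and 2462 kb from H3K27ac.

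Pig forelimb offered a readout that the rule did not use. Orthologs were matched by identical symbol, 14777 in all and 3599 for member genes, and a pig mark was read within 1 kb of a pig RefSeq TSS. In pig, 43.1% of member orthologs carried H3K27ac (41.5% to 44.7%), against 55.8% of all orthologs and 83.1% of the orthologs of genes with all 3 marks in mouse. H3K4me3 alone in mouse gave 32.5% and no H3K4me3 gave 9.96%. H3K4me3 was at 87.7% of member orthologs in pig, against 78.0% of all. It was at 95.1% for all 3 marks in mouse, 93.5% for H3K4me3 with H3K27ac and 81.0% for H3K4me3 alone. H3K4me1 was at 83.3% of member orthologs (82.0% to 84.5%), against 72.4% of all and 77.9% for all 3 marks. The pig share of H3K27ac at member genes thus lay between those of H3K4me3 alone and of all 3 marks, with intervals that did not overlap. With only the wider 50% of the peaks of each list it was 49.83% for members (47.47% to 52.19%). H3K4me3 alone stood at 50.78%, so these states were not told apart there. The narrower peaks were dropped before classing, so the states held other genes. H3K4me3 alone then had 2578 orthologs, against 1397 with all peaks. Species, stage and sequencing differ between the mouse and pig lists and cannot be told apart, and pig H3K27ac peaks were narrower (median 1166 bp) than mouse ones (2928 bp).

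**Figure D3:**
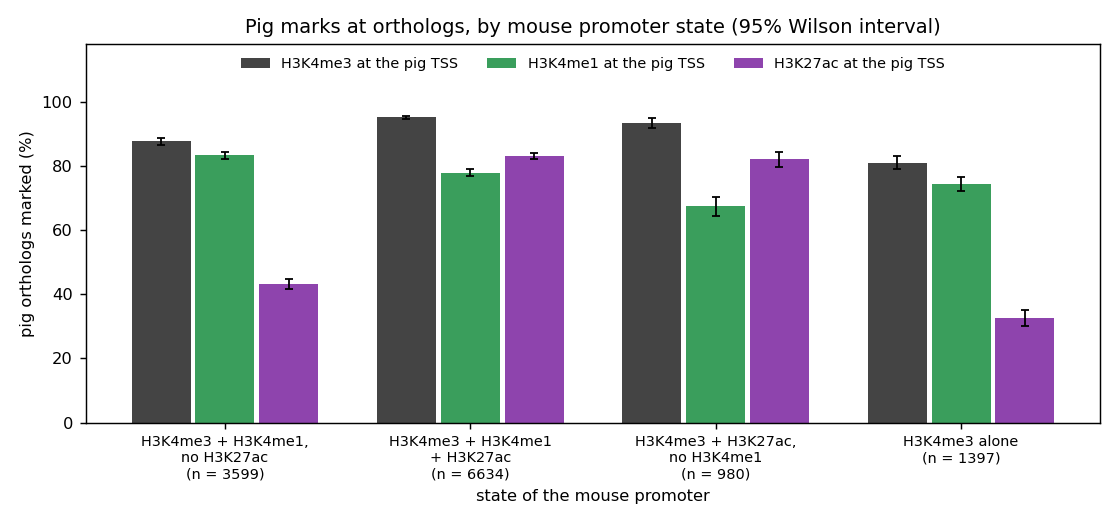
Share of pig orthologs (vertical axis, percent) with each mark within 1 kb of a pig TSS, by the state of the mouse promoter (horizontal axis). Bars are shares and whiskers 95% Wilson intervals; pig H3K27ac stands at 43.1% for the members and 83.1% for genes with all 3 marks.

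The same state as in mouse, H3K4me3 with H3K4me1 and without H3K27ac, was found in pig for 1425 member orthologs, 39.6% (38.0% to 41.2%), against 19.7% of all orthologs. The share was 39.4% (36.8% to 42.0%) for H3K4me3 alone and 10.9% for genes with all 3 marks. The share depended on the reading: at the TSS base itself it was 21.93% for members and 27.05% for H3K4me3 alone, and with only the wider 50% of peaks 18.55% and 15.13%. All 3 marks in pig were found for 1292 member orthologs (35.9%). By the width of the member, pig H3K27ac was at 38.0% in the narrowest tercile of members, up to 3110 bp, and at 45.9% and 45.5% in the wider ones.

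The listed genes differed in pig, in counts too small for a comparison between lists and to be read beside the 43.1% of all member orthologs. Of the 31 covered regulators of other tissues, all with an ortholog, 6 had pig H3K27ac, namely Hesx1, Bhlhe22, Isl2, Gata6, Hey2 and Eya1. Of these, Eya1 also had H3K27ac in a TSS window in mouse. The mouse state was shared by 16 of the 31, among them Otx1, Neurog2, Atoh1, Gata4, Hhex and Wt1. Of the covered limb mesenchyme factors, 3 of 3 had pig H3K27ac, as did 4 of 6 hedgehog genes, among them Ptch1, Gli2 and Hhip, and 4 of 6 BMP genes (Bmp5, Bmp7, Gdf5 and Nog). Chondrogenic genes had it at 1 of 5 (Sox6) and FGF pathway genes at 0 of 2. Shh had H3K4me3 without H3K4me1 or H3K27ac in pig, and Bmp6 and Gdf6 shared the mouse state. None of the covered genes on the ectoderm, endothelial, blood and neural crest lists with an ortholog had pig H3K27ac. Beyond these lists, 2 of 5 covered keratins with an ortholog had it, Krt8 and Krt19. Of the 13 Wnt ligands, 9 shared the mouse state and Wnt5b alone had pig H3K27ac. All 6 covered POU genes shared the mouse state. Of the immunoproteasome genes, Psmb8 and Psmb10 shared it and Psmb9 had all 3 marks.

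**Figure D4:**
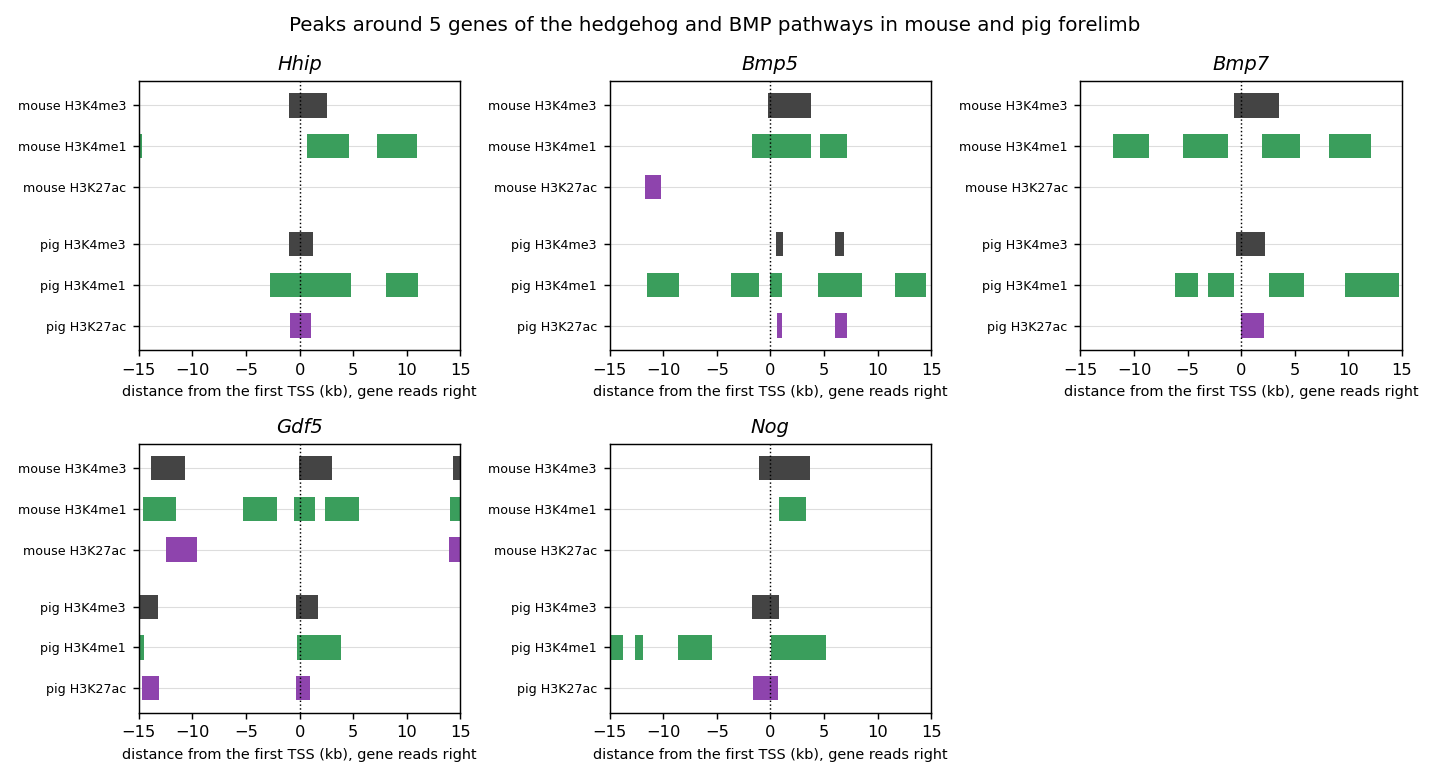
Peaks of the 3 marks in mouse and pig around 5 hedgehog and BMP pathway genes (horizontal axis, kb from the first annotated TSS, genes reading to the right; rows are marks by species, boxes are peaks). Mouse H3K27ac is absent from each TSS window while pig H3K27ac lies within 1 kb of the first pig TSS.

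The plot of peaks around these pathway genes shows the differences in position. At Hhip, mouse H3K4me1 began 0.702 kb after the TSS and no mouse H3K27ac peak lay within 15 kb, while a pig H3K27ac peak ran from -0.899 kb to 1.063 kb around the TSS. At Bmp7 the pig H3K27ac peak ran from the TSS to 2.132 kb. At Gdf5 mouse H3K27ac peaks ended at -9.595 kb on the upstream side and began at 13.934 kb on the downstream side, so neither reached the TSS. Bmp5 likewise had a mouse H3K27ac peak that ended at -10.16 kb, and pig H3K27ac peaks began at 0.606 kb and 6.014 kb.

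Member promoters were CpG-rich, less so than promoters with all 3 marks. Over the 300 bases from 250 before to 50 after the TSS, 3607 member promoters of 3067 genes had a median CpG observed-over-expected ratio of 0.706 (quartiles 0.514 and 0.855). The median was 0.816 for all 3 marks, 0.755 for H3K4me3 with H3K27ac, 0.647 for H3K4me3 alone, 0.185 without H3K4me3 and 0.567 over all promoters. A ratio of at least 0.6 was found in 65.3% of member promoters (63.7% to 66.8%) and in 80.9% with all 3 marks, 56.3% of H3K4me3 alone and 47.7% of all. The 4 covered blood genes stood low, with a median of 0.263, and the 4 endoderm genes with a sequence stood high, with 0.878 over 5 promoters.

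**Figure D5:**
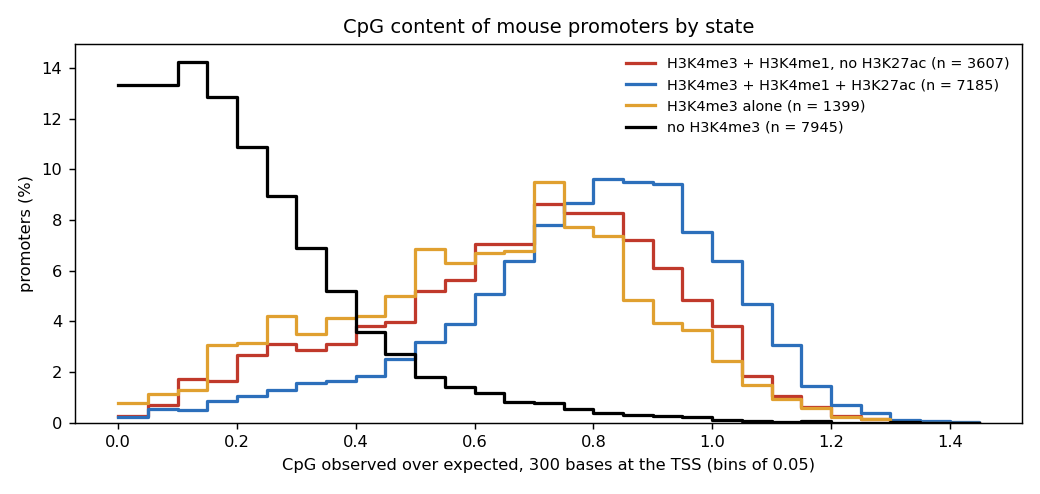
Distribution of the CpG observed-over-expected ratio of RefSeq promoters (horizontal axis, bins of 0.05; vertical axis, percent of the promoters of a state). The member curve, with a median of 0.706, lies between that of H3K4me3 alone (0.647) and that of all 3 marks (0.816).

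Core promoter words were searched on both strands in the same 300 bases, and none of the words contains another. The ETS word CCGGAAG was in 14.6% of member promoters, against 20.01% with all 3 marks, 8.93% of H3K4me3 alone and 11.6% of all promoters. Members likewise stood between all 3 marks and H3K4me3 alone for the YY1 word AAGATGG (4.99% of members, 7.59% and 3.93%), where they were below the 6.24% of all promoters, for the NRF1 word GCGCATG (5.79%, 7.99% and 4.003%, with 4.80% of all) and the CRE word TGACGTC (4.10%, 6.53% and 3.29%, with 3.84% of all). For the YY1, NRF1 and CRE words the intervals of members and H3K4me3 alone overlapped, while those of members and all 3 marks did not. The E box CAGCTG, a word bound by bHLH factors, was in 17.4% of member promoters, 17.7% of H3K4me3 alone, 13.6% with all 3 marks and 15.6% of all. The TATA box TATAAA was in 6.71% of member promoters, 7.65% of H3K4me3 alone, 5.85% with all 3 marks and 12.6% of all. The GC box GGGCGG (67.1%) and the CCAAT box CCAAT (37.6%) differed little from promoters with all 3 marks (68.2% and 37.7%), and the homeobox core TAATTA was in 2.11%, against 4.54% of all. A match is a description of the sequence, and whether a factor binds there was not measured.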

How the data were processed

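ChIPmentation libraries for H3K4me3, H3K4me1 and H3K27ac came from mouse and pig forelimbs, 2 samples per mark and species in the labels. The deposited files hold peak positions only (chromosome, start and end, no counts or scores). Per the labels and design text, reads were used at 50 bp, aligned to GRCm38/mm10 or Sscrofa11.1, and peaks kept at a broad IDR below 0.01. Bowtie2 2.3.5, SAMtools 1.9, Trimmomatic 0.39, deepTools 3.5 and FastQC 0.11.9 were used, per the submitters' processing notes. No source used here names the peak caller. Depth per sample is unknown.

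Peaks were joined by overlap of at least 1 bp, start sites were taken from RefSeq (GRCm38.p6, Sscrofa11.1) with 1 kb on each side, and orthologs by identical symbol. Python 3.11.15, numpy 2.4.6, pandas 2.3.3 and scipy 1.17.1 were used. The overlap code was tested on simulated data. The 95% Wilson intervals cover counting error only, and since each mark has 1 consensus list, no p-value was computed. Promoter sequences were found for 3067 of 4092 member genes and for none of the 88 on chromosome 18.

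Named genes were those of 19 lists covered by a member, those at the 12 widest members and the 6 with most H3K4me1, listed genes with pig H3K27ac, and the first gene of each list shown in sequence. The members and lists were chosen with earlier results of these data known.

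Some genes of the lists are not reported here.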

Additional observations from a re-analysis of the deposited data

How the results depend on the processing

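The caller's threshold could not be made stricter, since the lists hold no scores, so peak width stood in for it. Of 43 values recomputed under 8 alternatives, 27 stayed within their interval or, for counts, within 1.5 times. The other 16 were as follows. With only the wider 50% of each list there were 2160 members over 1921 coding genes and 14 of the 100 listed regulators, with a promoter CpG ratio of 0.7675, pig H3K27ac at 49.83% and the mouse state in pig at 18.55%. H3K4me3 alone then stood at 50.78% for pig H3K27ac, inside the interval of the members (47.47% to 52.19%), and at 15.13% for the mouse state. At the TSS base itself pig H3K27ac was at 40.71% and the mouse state at 21.93%, below the 27.05% of H3K4me3 alone. With 2.5 kb on each side they were 45.23% and 41.87%. With the most 5′ TSS pig H3K27ac was at 38.63%. For member genes without H3K27ac in any window they were 40.94% and 41.3%. Reading the mouse state in the TSS window as in pig, an alternative chosen after seeing the data, gave 40.08%, 41.89% and a CpG ratio of 0.6763. In the 6 alternatives in which all states were recomputed, pig H3K27ac stayed lower for members than for genes with all 3 marks. No paired analysis was possible because each mark has 1 consensus list per species with no values per replicate, and for the same reason no replicate could be left out.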
